A study of Mus musculus with 6 samples.

Results

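The 7 GABA receptor subunit genes described here were *Gabra2*, *Gabra3*, *Gabra5*, *Gabrb2* and *Gabrg1*, which encode subunits of the GABA-A receptor, and *Gabbr1* and *Gabbr2*, which encode the GABA-B receptor. They were found by symbol among the 48440 rows of a table of gene counts from mouse dorsal root ganglia (DRGs), and all 7 were among the 18593 genes that passed the filter on low counts. The libraries came from L3/4 DRGs of wild-type male mice after microinjection, into the ganglia of 1 side, of an adeno-associated virus of serotype 5 (AAV5). In 3 libraries the virus carried *Gfp* (AAV5-*Gfp*, the control), and in 3 it was a mixture of viruses carrying the V1 and V2 variants of the long noncoding RNA *NIS-lncRNA* (labelled AAV5-NIS V1 and V2, here AAV5-*V1+V2*). All 6 thus received AAV5 and none was uninjected, so that each group stands for its own virus preparation, and the level of *NIS-lncRNA* itself was not analysed here. The labels place harvest at 5 weeks and the profiling at 4 weeks after injection. They do not state whether a library held 1 or several mice, or the age of the mice, so the p-values below measure the spread between libraries, which may in part be technical.

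GABA acts on sensory neurons through both receptor families. GABA-A receptors are chloride channels assembled as pentamers, most often from alpha, beta and gamma subunits. Sensory neurons keep a high internal chloride through the importer encoded by *Slc12a2*, so that these channels depolarize the afferent, and at its central terminals this depolarization takes part in presynaptic inhibition. GABA-B receptors are obligate heteromers, in which the GABBR1 subunit binds GABA and GABBR2 couples to Gi/o proteins, which inhibit voltage-gated calcium channels and open inwardly rectifying potassium channels. Auxiliary KCTD proteins bind the GABBR2 tail and shape the time course of the response.

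The alpha subunits differ at a residue of the benzodiazepine site, which lies between an alpha and a gamma subunit. To show which codon the described alpha transcripts carry there, with *Gabra4* and *Gabra6* for contrast, 24 bases of coding sequence around it are given from the GENCODE M21 annotation of GRCm38, with the codon in capitals.
Gabra2: gataccttctttCACaatgggaaa
Gabra3: gataccttcttcCACaatggtaaa
Gabra5: gacacgttcttcCACaacggcaag
Gabra4: gatactttcttcAGGaatggaaag
Gabra6: gacacttttttcCGGaatgggaaa
The codon is CAC, histidine, in *Gabra2*, *Gabra3* and *Gabra5*, and AGG or CGG, arginine, in *Gabra4* and *Gabra6*. Receptors with the histidine bind classical benzodiazepines and those with the arginine do not. The stretch of *Gabra2* lies on the minus strand at chr5:71014496-71014519 in exon 5, that of *Gabra3* at chrX:72501159-72501182 in exon 5, and that of *Gabra5* at chr7:57488882-57488905 in exon 5, all within coding exons.

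On GRCm38, *Gabbr1* spans chr17:37045966-37075067 on the plus strand and *Gabbr2* spans chr4:46662305-46991873 on the minus strand. *Gabrg1* (chr5:70751047-70842617) and *Gabra2* (chr5:70957597-71095849) are neighbours in the cluster that also holds *Gabra4* and *Gabrb1*. *Gabra5* (chr7:57407672-57510059) shares its cluster with *Gabrg3*, *Gabrb2* (chr11:42419757-42629028) with *Gabra6*, and *Gabra3* (chrX:72432681-72656848) with *Gabre* and *Gabrq*. Of the 7, only *Gabra5* shared exon bases with another annotated gene, the antisense transcript *Gm9962*, over 148 bases or 4.98% of its exon length. Whether the counting used strand is not stated, so reads of these 2 genes might not be separated over those bases.

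The promoters also differed, and those of *Gabbr1*, *Gabbr2* and *Gabrg1* are given from RefSeq (GRCm38.p6), because *Gabbr2* had the highest and *Gabrg1* the lowest GC content among the first RefSeq promoters of the 7 genes. The lines hold the 250 bases before the start of *Gabbr1* (chr17:37045716-37045965, plus strand) and *Gabrg1* (chr5:70842618-70842867, minus strand) and, for *Gabbr2*, the 91 bases (chr4:46991874-46991964, minus strand) of that window that lie outside its GENCODE gene body. Capitals mark the GC box, GGGCGG read on either strand.
Gabbr1: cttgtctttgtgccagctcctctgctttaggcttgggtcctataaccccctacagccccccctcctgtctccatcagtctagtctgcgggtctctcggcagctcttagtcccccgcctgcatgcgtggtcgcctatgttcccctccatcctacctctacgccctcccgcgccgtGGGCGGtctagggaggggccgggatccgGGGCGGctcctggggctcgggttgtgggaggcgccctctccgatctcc
Gabbr2: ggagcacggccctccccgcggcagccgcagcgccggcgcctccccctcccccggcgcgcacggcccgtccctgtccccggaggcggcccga
Gabrg1: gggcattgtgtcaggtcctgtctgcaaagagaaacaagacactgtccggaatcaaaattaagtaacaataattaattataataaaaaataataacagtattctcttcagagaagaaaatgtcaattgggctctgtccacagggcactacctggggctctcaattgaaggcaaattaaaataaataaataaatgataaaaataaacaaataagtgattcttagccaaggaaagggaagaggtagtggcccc
The 250-base window of *Gabbr2* was 80.8% GC with 37 CpG dinucleotides, that of *Gabbr1* 66% with 16, and that of *Gabrg1* 35.6% with 1, against a median of 52.4% over 32817 RefSeq promoters. *Gabbr1* and *Gabbr2* each held 2 GC boxes, a motif found in 32.7% of all promoters, and *Gabrg1* held none. Those of *Gabbr2* lie in the part that is not printed. None of the promoter windows of the 7 genes held the cyclic AMP response element TGACGTCA, which was present in 1.55% of all promoters. A match is only a description of these letters.

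Among the 7 subunits, *Gabbr1* and *Gabbr2* transcripts were the most abundant and *Gabra5* the least. Levels are given as RPKM (reads scaled to exon length and library size), after scaling by the trimmed mean of M values (TMM). *Gabbr1* measured 29.8, 28.6 and 30.0 RPKM in AAV5-*Gfp* replicates 1 to 3. *Gabbr2* measured 22.2, 23.5 and 28.9 RPKM in the same libraries, so that the ranges of these 2 genes overlapped in the controls. The GABA-A subunits followed in the order *Gabra2* (11.3 ± 0.913 RPKM, SD, n = 3), *Gabra3* (4.67 ± 0.233), *Gabrg1* (3.93 ± 0.163), *Gabrb2* (2.18 ± 0.244) and *Gabra5* (0.832 ± 0.0332), and no neighbours among these 5 overlapped in the controls. With AAV5-*V1+V2* the order of the 7 means was the same, but *Gabra3* (2.67 to 4.34 RPKM) and *Gabrg1* (2.51 to 3.56 RPKM) overlapped, whereas *Gabbr1* and *Gabbr2* no longer did.

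**Figure D1:**
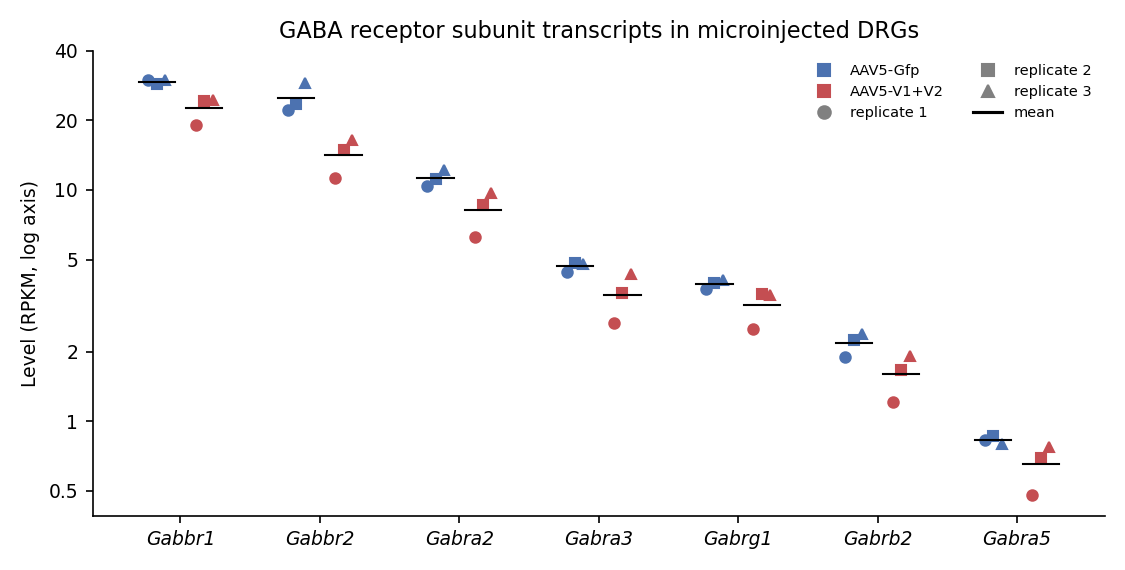
Levels of the 7 subunit transcripts in each library, in RPKM on a log axis, with AAV5-*Gfp* in blue and AAV5-*V1+V2* in red. Symbols stand for replicates and black lines for group means, and AAV5-*V1+V2* replicate 1 (circle) is the lowest of the 6 libraries for all 7 genes.

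All 7 subunits were measured at lower mean levels with AAV5-*V1+V2* than with AAV5-*Gfp*, and *Gabbr2* was the only one whose fall passed the test at an adjusted p of 0.05 (edgeR quasi-likelihood test, Benjamini-Hochberg adjustment over all genes tested). That is 1 of 7 called lower and 0 of 7 called higher, where 5.27% of all genes tested were called lower and 10.1% higher. The median log2 fold change of the 7 was -0.41, where the median over all genes tested was 0.00. Before adjustment, 5 of the 7 were lower with p under 0.05 (edgeR), and so were 9 of the 15 sensory neuron markers described below. With RLE scaling, an alternative to TMM, 5 members again passed this looser cut, beside 2944 lower genes among the 18593 tested. In 6 of the 7, all 3 AAV5-*V1+V2* libraries lay below all 3 control libraries, a pattern that 22.0% of all genes tested showed. AAV5-*V1+V2* replicate 1 was the lowest of the 6 libraries for each of the 7 genes.

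*Gabbr2*, the coupling subunit of the GABA-B receptor, had 4779, 5452 and 6034 counts in AAV5-*Gfp* replicates 1 to 3 and 2472, 3321 and 3790 in AAV5-*V1+V2* replicates 1 to 3. In RPKM these were 22.2, 23.5 and 28.9 against 11.2, 14.9 and 16.5, and the groups did not overlap. The level was 42.8% lower with AAV5-*V1+V2*, a log2 fold change of -0.81 (SE 0.16, 95% confidence interval -1.18 to -0.43, adjusted p = 0.0231, edgeR). Of all genes tested, 360 (1.94%) had a more negative log2 fold change. It stayed called without AAV5-*V1+V2* replicate 1 (log2 fold change -0.66, adjusted p = 0.0136) or replicate 3 (-0.92, 0.0126). The call was lost without AAV5-*Gfp* replicate 1 (log2 fold change -0.88, adjusted p = 0.0542), replicate 2 (-0.84, 0.0855) or replicate 3 (-0.68, 0.0958), and without AAV5-*V1+V2* replicate 2 (-0.83, 0.0544). Between 0 and 150 of all genes were called lower in the 4 fits that lost it.

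*Gabbr1*, the GABA-binding subunit, had 7459, 7695 and 7260 counts in the AAV5-*Gfp* libraries and 4878, 6282 and 6520 with AAV5-*V1+V2*. In RPKM the treated libraries were 19.1, 24.3 and 24.5, below the control range of 28.6 to 30.0, with replicate 1 well below the other two. Its log2 fold change was -0.38 (SE 0.11, 95% confidence interval -0.63 to -0.13), and its adjusted p of 0.0514 (edgeR) lay just outside the threshold. It was called without AAV5-*V1+V2* replicate 1 (log2 fold change -0.27, adjusted p = 0.0179, edgeR) and without AAV5-*V1+V2* replicate 3 (-0.43, 0.0388). Over all genes, 1095 and 1446 were called lower in those fits.

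The ratio of *Gabbr1* to *Gabbr2* RPKM within each library was higher in all treated libraries. It was 1.34, 1.22 and 1.04 in AAV5-*Gfp* replicates 1 to 3 and 1.70, 1.63 and 1.48 in AAV5-*V1+V2* replicates 1 to 3. On the log2 scale the mean was 0.25 ± 0.19 in the controls and 0.68 ± 0.10 in the treated libraries (SD, n = 3 each), a difference of 0.43. The groups did not overlap, and a two-sided exact permutation test returned p = 0.1, below which this design cannot go. This ratio does not depend on how libraries are scaled.

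Of the 3 alpha subunits, *Gabra2*, which encodes the alpha2 subunit, was the most abundant, with 2576, 2964 and 2924 counts in the controls and 1573, 2191 and 2537 in the treated libraries. Its RPKM values of 6.26, 8.62 and 9.68 with AAV5-*V1+V2* lay below the control values of 10.5, 11.2 and 12.3. The log2 fold change was -0.47 (SE 0.15, 95% confidence interval -0.83 to -0.11, adjusted p = 0.0802, edgeR), and it became a call only without AAV5-*V1+V2* replicate 3 among the fits that left out a library (-0.59, 0.0296), while without replicate 1 it was -0.30 (0.0502).

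*Gabra3*, encoding alpha3, had 4.41, 4.82 and 4.79 RPKM in the controls and 2.67, 3.58 and 4.34 in the treated libraries. The groups were separate, but AAV5-*V1+V2* replicate 3 lay close to the lowest control. Its log2 fold change was -0.41 (SE 0.17, adjusted p = 0.132, edgeR), and without AAV5-*V1+V2* replicate 3 it was -0.57 and called (adjusted p = 0.0318), whereas without replicate 1 it was -0.24 (0.17). *Gabra5*, encoding alpha5, was the scarcest member, with 80, 89 and 74 counts against 47, 69 and 79, and in RPKM 0.834, 0.864 and 0.797 against 0.480, 0.697 and 0.774. At these counts its log2 fold change of -0.35 (SE 0.21, 95% confidence interval -0.84 to 0.13, adjusted p = 0.264, edgeR) was not distinguishable from 0, and without AAV5-*V1+V2* replicate 1 it was -0.17.

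*Gabrb2*, which encodes the beta2 subunit, was the only one of the 7 whose groups overlapped, with 1.91, 2.26 and 2.37 RPKM in the controls and 1.21, 1.67 and 1.92 with AAV5-*V1+V2*. AAV5-*V1+V2* replicate 3 exceeded AAV5-*Gfp* replicate 1 by a narrow margin. The log2 fold change was -0.45 (SE 0.18, adjusted p = 0.124, edgeR). *Gabrg1*, which encodes the gamma1 subunit, had the smallest difference, with 3.75, 3.98 and 4.06 RPKM in the controls and 2.51, 3.56 and 3.51 with AAV5-*V1+V2*. Only replicate 1 of the treated libraries stood far from the controls. Its log2 fold change was -0.30 (SE 0.14, 95% confidence interval -0.62 to 0.02, adjusted p = 0.163, edgeR), and without AAV5-*V1+V2* replicate 1 it was -0.15. That library also moved *Gabrb2*, which was at -0.27 without it.

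Markers of sensory neurons were lower in the same libraries. All 15 genes of a sensory neuron list, among them *Tubb3*, *Avil* and the neurofilament genes, had negative log2 fold changes. Their median was -0.43 and their range -0.93 to -0.20. Beside 5.27% of all genes tested, 2 of the 15 were called lower, *Rbfox3* (-0.93, adjusted p = 0.0256, edgeR) and *Pou4f1* (-0.43, 0.0376). This count was 0 without AAV5-*Gfp* replicate 1, 2 or 3, where 59, 0 and 0 of all genes were called lower. It was 8, 1 and 6 without AAV5-*V1+V2* replicate 1, 2 or 3, beside 1095, 150 and 1446 of all genes. With DESeq2 it was 8, beside 1606 of all genes. All 15 stayed negative in each of these fits. The list held 1.12% to 1.17% of all counts in the controls and 0.737%, 1.02% and 1.05% with AAV5-*V1+V2* replicates 1 to 3, so that replicate 1 was again the lowest. In bulk tissue, fewer neurons, less RNA per neuron and more RNA from other cells cannot be told apart. Conversely, 11 of 12 leukocyte markers were called higher, beside 10.1% of all genes tested. Their summed CPM (RPKM without the division by length) ranged from 112 to 168 in the controls and from 683 to 1769 in the treated libraries. None of the 12 was at or under the floor of 3 counts in every library. The part of the leukocytes in the differences of the GABA receptor genes was not tested. Of 10 Schwann cell markers none was called (median log2 fold change -0.02), and 2 were lower and 1 higher at an unadjusted p under 0.05. Of 8 satellite glia markers 1 was called higher and 1 lower (median -0.19), and 4 were lower and 1 higher at that unadjusted threshold. Over all genes, 2944 of 18593 were lower at that threshold with RLE scaling.

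Set against the neuron list, *Gabbr2* was the only one of the 7 members whose groups stayed apart, a pattern that 3.12% of all genes tested showed in the same direction on that scale. Per 100000 neuron-list counts it had 1245, 1403 and 1583 in the controls and 1047, 1006 and 1057 in the treated libraries. *Gabbr1* had 1944, 1981 and 1905 against 2066, 1902 and 1818, which overlapped. *Gabra2* had 671, 763 and 767 against 666, 663 and 707, with AAV5-*V1+V2* replicate 3 above the lowest control. The low AAV5-*V1+V2* replicate 1 thus no longer stood apart for these genes.

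When library sizes were taken from the neuron list in the edgeR fit, the median log2 fold change of all genes became 0.39. On that scale *Gabbr2* was at -0.44 (SE 0.13), which no longer passed after adjustment (adjusted p = 0.068, edgeR). The other 6 members lay between -0.11 (*Gabra2*, SE 0.13) and 0.06 (*Gabrg1*, SE 0.14), and *Gabbr1* was at -0.01 (SE 0.11, adjusted p = 0.942). On this scale *Gabrg1* had the opposite sign from the TMM fit. Between 46.3% and 50% of the list's counts came from *Nefl*, *Nefm* and *Nefh*. Without these 3 genes, an alternative added after the data were seen, *Gabbr2* was at -0.38 (SE 0.13, adjusted p = 0.0702), and *Gabbr1* (0.05), *Gabra3* (0.01), *Gabra5* (0.06) and *Gabrg1* (0.12) were above 0. Only 1 of the 15 neuron markers, *Rbfox3*, had a more negative log2 fold change than *Gabbr2* in the TMM fit.

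**Figure D2:**
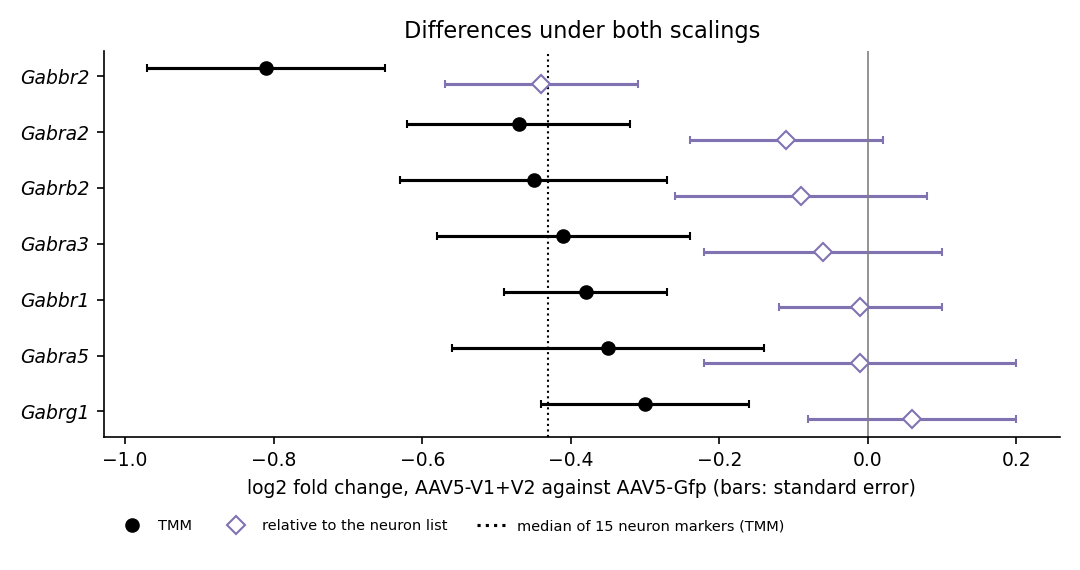
Log2 fold change of each subunit, AAV5-*V1+V2* against AAV5-*Gfp*, with TMM scaling (filled circles) and relative to the neuron list (open diamonds), with bars for standard errors and a dotted line at the median of the 15 neuron markers under TMM (-0.43). Under TMM the 6 members other than *Gabbr2* lie near the dotted line, and relative to the neuron list they lie between -0.11 and 0.06 while *Gabbr2* stays at -0.44.

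Across the 6 libraries the 7 members also varied together. Pearson's r between members, on log2 CPM, was 0.84 to 0.99 over the 21 pairs with a median of 0.95, and r with the summed neuron list was 0.92 for *Gabbr2* and 0.94 to 0.98 for the other 6. These are descriptions over 6 libraries that share the group difference and the low replicate 1. Of 14731 genes averaging 1 log2 CPM or more, the patterns most like that of *Gabbr2* were those of *Astn2* (r = 0.9999) and *Kcnh1* (0.9997), and those most like *Gabbr1* were *Dlg4* (0.9997) and *Hebp2* (0.9994). For *Gabra2* they were *1700020I14Rik* (0.9998) and *Bace1* (0.9989), for *Gabra3* *Anapc4* (0.9967) and *RP23-457I3.2* (0.9960), and for *Gabra5* *Gtpbp8* (0.9985) and *Pdp1* (0.9983). For *Gabrb2* they were *Igdcc4* (0.9974) and *Creg2* (0.9971), and for *Gabrg1* *Gpd1l* (0.9978) and *Rbm18* (0.9977).

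Other GABA-A subunits give the setting for the 5 described here. Of 11 other subunit genes examined, 8 passed the filter, with a median log2 fold change of -0.29. *Gabra4* was at 0.00, *Gabrr2* was above 0 and the rest were below 0 with TMM. Of the 8, 1 was called lower and 0 higher, beside 5.27% and 10.1% of all genes tested. The gene called was *Gabrb1*, which encodes the beta1 subunit, with 445, 537 and 572 counts in the controls and 281, 371 and 353 in the treated libraries (log2 fold change -0.67, SE 0.14, adjusted p = 0.0278, edgeR). The groups did not overlap. *Gabrb1* was not called without AAV5-*Gfp* replicate 1, 2 or 3 (log2 fold change -0.76, -0.68 and -0.55), where 0 of the 8 passed. Over all genes, 59, 0 and 0 were called lower in those fits. Relative to the neuron list *Gabrb1* was at -0.29 and none of the 8 passed.

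*Gabrg3* was at -0.65 (adjusted p = 0.079, edgeR). *Gabrq* was at -0.76 (SE 0.33, adjusted p = 0.145, edgeR), with only 16, 12 and 12 counts in the controls and 7, 10 and 7 in the treated libraries. *Gabra4* was at 0.00 with 30 to 47 counts in each library. *Gabre* (-0.17), *Gabrr1* (-0.40), *Gabrr2* (0.48) and *Gabrr3* (-0.18) had at most 55 counts in a library, and their adjusted p-values were between 0.378 and 0.703. *Gabra6* (at most 1 count), *Gabrd* (2 to 8) and *Gabrp* (0 to 4) did not pass the filter on low counts. The differences between these genes and the 5 GABA-A members were not tested.

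Several genes that work with the GABA-B receptor were called in one direction or the other. Of 16 partners and effectors, 15 passed the filter, and 8 were called lower and 2 higher, with a median log2 fold change of -0.64 under TMM. The shares over all genes tested were 5.27% lower and 10.1% higher. Relative to the neuron list, 1 of the 15 was called lower and 1 higher, where 14 and 1255 of the 18593 genes tested were. Among the auxiliary subunits, *Kctd16* had 10049, 12756 and 13916 counts in the controls and 4713, 6581 and 7791 in the treated libraries, a log2 fold change of -0.99 (SE 0.19, adjusted p = 0.0227, edgeR). *Kctd8* was lower by a similar pattern (-0.72, 0.0342). *Kctd12* went the other way, with 664, 705 and 529 counts against 1760, 1305 and 1219 and a log2 fold change of 1.15 (SE 0.16, adjusted p = 0.0144). *Kctd12b* was at 0.11 (adjusted p = 0.537). The auxiliary genes were thus called in opposite directions, and for each of the 3 called genes the groups did not overlap. In the lower direction, 22.0% of all genes tested showed such separation.

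Among effectors, *Kcnj6*, which encodes the GIRK2 potassium channel subunit, had 135, 177 and 184 counts against 70, 80 and 75 (log2 fold change -1.18, SE 0.17, adjusted p = 0.0144, edgeR). *Kcnj3*, encoding GIRK1, was at -0.69 (adjusted p = 0.0533) and *Kcnj9*, encoding GIRK3, at -0.23 (0.447). The calcium channel genes *Cacna1a* (-0.64, SE 0.12, adjusted p = 0.0191) and *Cacna1b* (-0.76, 0.0288), which encode the pores of the P/Q and N types, were both called lower. Of the G protein genes, *Gnao1* (-0.72, 0.0292) and *Gnai1* (-0.30, 0.0426) were called lower and *Gnai2* higher (0.47, 0.0474), while *Gnai3* was at 0.21 (0.0894). *Rgs7*, a regulator that speeds G protein inactivation, was called lower (-0.78, SE 0.15, 0.0204), and *Rgs4* was at -0.29 (0.228).

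These counts moved with the libraries and the scaling. Without AAV5-*Gfp* replicate 1, 2 or 3, 2, 0 and 0 of the 15 were called lower and 1, 0 and 0 higher. Over all genes, these fits called 59, 0 and 0 lower and 257, 12 and 15 higher. Without AAV5-*V1+V2* replicate 1, 2 or 3, 9, 1 and 8 of the 15 were called lower and 1, 1 and 2 higher. Over all genes, the latter fits called 1095, 150 and 1446 lower and 1862, 1020 and 2474 higher. Relative to the neuron list 1 gene was called lower, *Kctd16* (log2 fold change -0.63, adjusted p = 0.0367, edgeR), and 1 higher, *Kctd12* (1.58, 0.0227), while *Kcnj6* was at -0.79 (0.0724) and *Gnai2* at 0.89 (0.0619). The higher genes *Kctd12* and *Gnai2* were measured beside the higher leukocyte markers given above, whose part in these 2 differences was not tested.

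**Figure D3:**
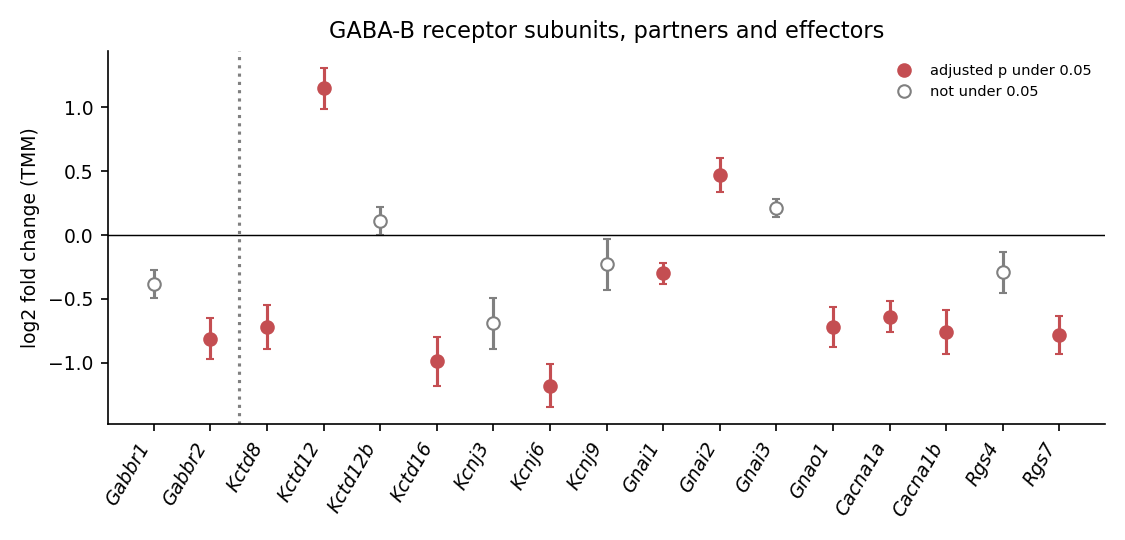
Log2 fold change (TMM) of *Gabbr1*, *Gabbr2* and the 15 tested GABA-B partners and effectors, with bars for standard errors and filled red points for an adjusted p under 0.05. *Kctd12* (1.15) and *Gnai2* (0.47) are the filled points above 0, and *Kcnj6* (-1.18) is the lowest.

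On the GABA-A side, 1 of 14 receptor partners was called lower and 1 higher. The shares over all genes tested were 5.27% lower and 10.1% higher. *Lhfpl3*, of the family of *Lhfpl4*, whose product holds GABA-A receptors at synapses, had 3745, 4293 and 4762 counts against 1674, 2671 and 2656 (log2 fold change -0.91, SE 0.18, adjusted p = 0.0237, edgeR). *Lhfpl4* itself was at -0.27 (adjusted p = 0.212, edgeR) and was not called. *Plcl2*, of the PRIP family that binds GABA-A beta subunits, was higher (0.99, adjusted p = 0.0376, edgeR), with 3652, 1967 and 2015 counts in AAV5-*V1+V2* replicates 1 to 3. The part of the higher leukocyte markers given above in this difference was not tested. *Plcl1*, of the same family as *Plcl2*, was at -0.16 (adjusted p = 0.278, edgeR). Gephyrin (*Gphn*), the scaffold of inhibitory synapses, was at -0.28 (adjusted p = 0.0627), and *Gabarapl1* at -0.34 (0.0926). Neither *Lhfpl3* nor *Plcl2* was called without AAV5-*Gfp* replicate 1, 2 or 3. Without AAV5-*V1+V2* replicate 3, 4 of the 14 were called lower, beside 1446 of all genes. Relative to the neuron list *Lhfpl3* was still called lower (-0.56, adjusted p = 0.0494, edgeR), as were 14 of all genes tested. On that scale *Lhfpl4* was at 0.09 (0.532) and *Plcl2* at 1.47 (0.0506).

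None of 9 tested genes of GABA synthesis, transport and breakdown passed the test (edgeR). At an unadjusted p under 0.05, 2 were lower and 0 higher, and DESeq2 called 1 lower. Over all genes, 2944 of 18593 were lower at the unadjusted cut with RLE scaling, and DESeq2 called 1606 lower. The 2 genes lower at the unadjusted cut were *Abat*, the GABA transaminase (-0.30, adjusted p = 0.0643), and *Slc6a11*, the transporter GAT3 (-0.50, 0.067). *Aldh5a1* (-0.27, 0.18) and, in the other direction, *Best1*, a chloride channel gene (0.62, 0.27), followed. *Gad1*, encoding a GABA-synthesizing enzyme, had 19 to 23 counts per library. *Slc32a1*, the vesicular GABA transporter, had at most 1 count in a library and *Gad2* 4 to 10, and neither passed the filter.

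Of 15 chloride transport genes 2 were called lower and 0 higher, beside 5.27% and 10.1% of all genes tested. *Ano1*, a calcium-activated chloride channel of nociceptors, had 1256, 1410 and 1310 counts against 837, 911 and 947 (log2 fold change -0.60, SE 0.07, adjusted p = 0.0139, edgeR), and the kinase gene *Wnk2* was at -0.63 (SE 0.11, 0.0172). Relative to the neuron list they were at -0.21 and -0.25 and were not called. Without AAV5-*Gfp* replicate 1 there was 1 call, lower, beside 59 of all genes, and without replicate 2 or 3 there was none. *Wnk3* (-0.35, adjusted p = 0.067) and the exporter *Slc12a4* (0.25, 0.0852) followed. *Slc12a2*, the importer that sets the chloride gradient for GABA-A currents, was at -0.17 (SE 0.07, adjusted p = 0.162), and *Slc12a5*, the neuronal exporter, had only 34 to 46 counts per library and was at 0.11 (SE 0.21). Of 7 tested genes of endozepines and neurosteroids 1 was called higher, beside 10.1% of all genes tested. It was *Tspo* (1.01, adjusted p = 0.0474, edgeR), which macrophages also express. Among the fits that left out a library, *Tspo* was called only without AAV5-*V1+V2* replicate 3. *Dbi*, which encodes the benzodiazepine-site ligand precursor, was at 0.07 (0.541), and *Hsd17b10* was at -0.22 (0.161).

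Gene span, chosen as a measure after the values were seen, went along in part with the size of the difference. The 7 members span 29.1 kb (*Gabbr1*), 91.6 kb (*Gabrg1*), 102 kb (*Gabra5*), 138 kb (*Gabra2*), 209 kb (*Gabrb2*), 224 kb (*Gabra3*) and 330 kb (*Gabbr2*). The 2 other subunit genes examined that average 1 log2 CPM or more, *Gabrb1* (491 kb) and *Gabrg3* (671 kb), are longer still. *Gabrq*, below that level and at -0.76, spans only 17.4 kb. Among the members the order did not always hold. *Gabbr1*, the shortest, was at -0.38, where *Gabrg1* was at -0.30 and *Gabra5* at -0.35. *Gabra3* was at -0.41, where the shorter *Gabra2* was at -0.47. Spearman's rho between span and log2 fold change was -0.82 over the 9 GABA receptor genes averaging 1 log2 CPM or more and -0.69 over 29 markers of sensory neurons and their subtypes. All points come from the same 6 libraries, and genes are not independent replicates. Protein-coding genes at that level had a median log2 fold change of 0.03 below 50 kb (8979 genes), -0.01 from 50 to 100 kb (2070), -0.08 from 100 to 200 kb (1321) and -0.28 above 200 kb (936), and 75.3% of the last class were negative. The part of gene span in the fall of *Gabbr2* was not tested.

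**Figure D4:**
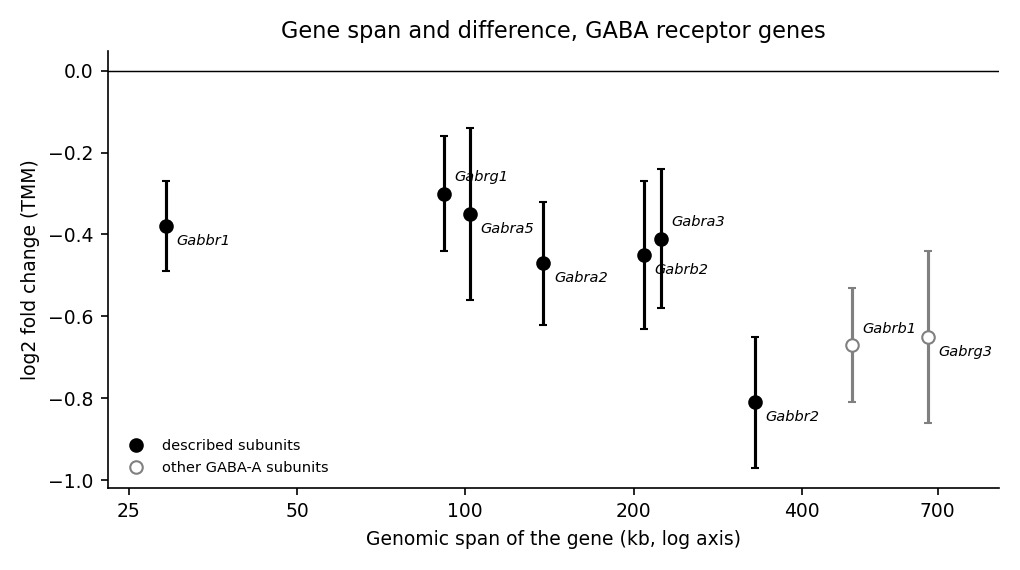
Genomic span of the 9 GABA receptor genes averaging 1 log2 CPM or more (kb, log axis) against log2 fold change under TMM, with bars for standard errors. Filled points are the 7 described subunits and open points other GABA-A subunits, and *Gabbr2* and the 2 longer genes lie between -0.81 and -0.65.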

How the data were processed

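RNA from L3/4 DRGs was measured in 6 libraries, 3 per group, prepared with a stranded total RNA kit per the labels. Gene-level read counts were deposited, not normalized, in 1 table of whole numbers, on GRCm38 (mm10) according to the submitters' processing notes. The aligner, counter, annotation and strand setting are not given in the sources used here, so whether intronic reads were counted is unknown. Libraries held 32618252 to 34764282 counts in the control group and 32025612 to 34228594 in the other, and no pair of libraries agreed within sampling noise. The floor of 3 counts covers counting error only, whereas confidence intervals of log2 fold changes come from the fit and include the spread between libraries.

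Columns were matched to samples by group name and replicate number. Genes passing filterByExpr were tested with the edgeR 4.0.16 quasi-likelihood test after TMM scaling (R 4.3.3), with Benjamini-Hochberg adjustment over all genes tested and a threshold of 0.05. Levels use GENCODE M21 exon lengths. DESeq2 1.42.0 and limma-voom (limma 3.58.1) were among 15 alternatives, which also covered scaling, the filter, a replicate block and leaving out each library, and 1 of them was added after the data were seen. The fit was tested on simulated data. Genes named were the 7 members, other tested GABA-A subunits, the tested GABA-B partners and effectors, and the 2 most similar genes per member. Of each other GABA list at most 4 genes with the smallest adjusted p-values were named. Some further genes, such as *Gad1*, *Slc12a2*, *Slc12a5*, *Lhfpl4* and *Plcl1*, were named outside these rules. Some genes of these families, and shares of subunits within a class, are not reported here. The members and lists were chosen with earlier results of these data known.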

Additional observations from a re-analysis of the deposited data

How the results depend on the processing

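In all 15 alternatives *Gabbr2*, *Gabra2* and *Gabrb2* kept a negative log2 fold change, and *Gabbr2* was called in 9. Against 1 member called lower in the fit reported above, RLE scaling and no filter gave 2, DESeq2 and an adjusted p under 0.1 gave 3, both neuron-list scalings gave 0, and leaving out a library gave 0 to 4. *Gabbr1* was called with RLE (-0.38), no filter (-0.38) and DESeq2 (-0.38), and *Gabra2* with DESeq2 (-0.47). Over the fits that left out a library, log2 fold changes were -0.92 to -0.66 for *Gabbr2*, -0.43 to -0.27 for *Gabbr1*, -0.59 to -0.30 for *Gabra2*, -0.57 to -0.24 for *Gabra3*, -0.59 to -0.27 for *Gabrb2*, -0.49 to -0.17 for *Gabra5* and -0.37 to -0.15 for *Gabrg1*. The cause of these changes was not tested.

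Relative to the neuron list, *Gabbr2* was at -0.44 and uncalled, and the sign turned for *Gabrg1* (0.06), *Gabra4* (0.37), *Gabre* (0.17) and *Gabrr3* (0.17). Without the neurofilament genes in that list, *Gabbr2* was at -0.38 and uncalled, and the sign turned for *Gabra3* (0.01), *Gabra5* (0.06), *Gabrg1* (0.12), *Gabbr1* (0.05), *Gabra4* (0.44), *Gabre* (0.23), *Gabrr1* (0.05) and *Gabrr3* (0.23). These scalings move all genes up by construction (median 0.39 and 0.45). *Gabra4*, at 0.00, also turned with total counts (0.06), the block (0.01), limma-voom (0.01) and, without a library, between -0.15 and 0.13, and *Gabre* without AAV5-*V1+V2* replicate 1 (0.06, with -0.34 as the lowest of those fits).

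Over all genes, calls were 1872 higher and 980 lower. An adjusted p under 0.1 gave 2898 and 2030, and DESeq2 gave 1606 lower. The neuron-list scalings gave 14 and, without neurofilament genes, 13 lower. Leaving out a library gave 12 to 2474 higher and 0 to 1446 lower. No gene was lower without AAV5-*Gfp* replicate 2 or 3 by edgeR, where 2029 and 1815 were lower at an unadjusted p under 0.05.

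With the replicate block, 1341 genes were called lower and 2118 higher, and 4 members were called lower: *Gabbr2*, *Gabra2* (-0.48, adjusted p = 0.0205), *Gabrb2* (-0.46, 0.0375) and *Gabbr1* (-0.39, 0.0435). Deviations of same-numbered libraries from their group means correlated at 0.036, 0.066 and 0.107. AAV5-*V1+V2* replicate 1 correlated better with AAV5-*Gfp* replicate 2 (0.043) than with its own number, while replicates 2 and 3 each correlated best with theirs. With 3 libraries per group, such correlations cannot decide whether equal numbers mark paired samples.

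Depth limited *Gabra5* among the members (47 to 89 counts per library) and, more so, the other GABA-A subunits with at most 55 counts.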
